A study of Mus musculus with 16 samples.

Results

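The data described here are the expression levels of 61 genes named as zinc finger proteins in the colon of mice with and without colitis. They were taken from 4 tables of genes, which together list 5171 distinct genes. Every listed gene was chosen whose name starts with Zfp and a digit, or with Zkscan, Zscan, Zbtb or Zik1, or is Trim28. The 61 genes comprise 46 Zfp, 10 Zbtb, 3 Zkscan and 2 Zscan genes. Neither Trim28 nor Zik1 is in any of the 4 tables, so no level of Trim28 was analysed here. All 61 are annotated as protein coding.

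RNA was sequenced from whole colon of C57BL/6 mice, and all animals had received an enriched microbiota from donor mice of another facility, beginning 2 weeks before colitis. Mice were wild type (WT) or lacked Smarcad1, a remodelling ATPase of chromatin, in the gut epithelium, where it was deleted through Cre recombinase driven by the villin promoter (KO). Control mice of each genotype (3 WT and 3 KO libraries) received no dextran sodium sulphate (DSS), and colitis mice of each genotype (5 WT and 5 KO libraries) drank 1% DSS, a polymer that injures the colon lining, for 15 days. The villin promoter directs the deletion to epithelium and not to the muscle, stroma or immune cells that whole colon also holds, and the age of the mice is not given in the sources used here. The sample labels name colon as the tissue, whereas the series text speaks of small intestine. The tables give 1 mean per group, computed by the authors in log2 RPM (reads relative to the library total, not divided by gene length), so no spread between mice is available for any value below and no test of a difference was run here.

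A table lists a gene only when it passed the authors' adjusted p of 0.05 in that comparison, and each gene below is called listed in that sense. The 61 genes are 13.1% of the 467 protein-coding genes of the mouse annotation with such names, while 4658 of all 21924 protein-coding genes (21.2%) were listed. The other genes with such names were not analysed here. Every count below therefore concerns genes already selected for a colitis change in at least 1 genotype, and the main counts are set beside the same over all 5171 listed genes. The geometric mean library size, recovered from the steps of the lowest means, was 10.1 M reads for WT and 9.77 M for KO in the control mice, and 8.005 M for WT and 9.87 M for KO in the colitis mice. Smarcad1 itself had a mean of 5.77 in WT control, 4.59 in KO control, 5.68 in WT colitis and 4.55 in KO colitis, and was thus 1.18 lower in KO control and 1.13 lower in KO colitis on the log2 scale.

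Zinc finger proteins of the C2H2 kind hold small loops of protein around a zinc ion, and a row of such fingers reads a DNA sequence. Many Zfp proteins carry a KRAB box at the other end, which recruits TRIM28, a corepressor that brings the H3K9 methyltransferase SETDB1 and heterochromatin protein HP1 to the bound site and so silences retroviral elements and genes. SMARCAD1 binds TRIM28, which is why these genes were compared between genotypes. The Zbtb proteins carry a BTB domain in place of the KRAB box, through which they pair and bind other corepressors, and several direct the fate of lymphocytes. Zscan and Zkscan proteins carry a SCAN domain, through which they pair with one another.

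The sequences shown first are promoters, the 250 bases before and 50 after the start of the gene, of genes that are described below for their genotype difference or for lying side by side. They are from RefSeq on GRCm38.p6, read 5′ to 3′ on the strand of the gene, with every CpG in capitals. Zfp809 was the only gene whose genotype difference, averaged over control and colitis, exceeded its colitis change averaged over WT and KO, and Zfp618 had the largest genotype difference in colitis. Zfp768 and Zfp764, and Zscan26 and Zkscan8, are neighbours.
Zfp809 (chr9:22225453-22225752, plus strand): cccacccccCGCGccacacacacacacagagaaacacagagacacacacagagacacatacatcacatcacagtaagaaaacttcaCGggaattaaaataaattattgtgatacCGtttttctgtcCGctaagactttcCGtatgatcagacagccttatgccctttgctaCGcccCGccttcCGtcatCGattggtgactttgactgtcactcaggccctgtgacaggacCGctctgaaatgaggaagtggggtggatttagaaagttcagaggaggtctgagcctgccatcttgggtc
Zfp618 (chr4:62965317-62965616, plus strand): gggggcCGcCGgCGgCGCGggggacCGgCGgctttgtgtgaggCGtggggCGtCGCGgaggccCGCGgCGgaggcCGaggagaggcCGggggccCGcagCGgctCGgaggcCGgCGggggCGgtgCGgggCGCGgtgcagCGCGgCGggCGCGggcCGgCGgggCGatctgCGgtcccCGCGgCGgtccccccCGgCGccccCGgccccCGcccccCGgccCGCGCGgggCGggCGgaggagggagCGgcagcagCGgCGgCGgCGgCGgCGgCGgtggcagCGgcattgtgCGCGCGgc
Zfp768 (chr7:127345265-127345564, minus strand): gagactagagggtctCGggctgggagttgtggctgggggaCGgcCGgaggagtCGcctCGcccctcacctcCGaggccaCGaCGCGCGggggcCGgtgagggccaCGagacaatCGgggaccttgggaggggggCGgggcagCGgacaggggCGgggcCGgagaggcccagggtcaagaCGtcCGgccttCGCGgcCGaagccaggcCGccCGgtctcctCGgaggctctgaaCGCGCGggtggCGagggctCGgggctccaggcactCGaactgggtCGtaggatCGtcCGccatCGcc
Zfp764 (chr7:127406773-127407072, minus strand): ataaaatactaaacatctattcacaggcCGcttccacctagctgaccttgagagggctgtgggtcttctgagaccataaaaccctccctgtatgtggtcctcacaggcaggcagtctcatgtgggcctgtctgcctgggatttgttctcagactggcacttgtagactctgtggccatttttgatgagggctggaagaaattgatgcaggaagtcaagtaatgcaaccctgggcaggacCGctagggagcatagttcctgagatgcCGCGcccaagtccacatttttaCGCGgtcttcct
Zscan26 (chr13:21453678-21453977, minus strand): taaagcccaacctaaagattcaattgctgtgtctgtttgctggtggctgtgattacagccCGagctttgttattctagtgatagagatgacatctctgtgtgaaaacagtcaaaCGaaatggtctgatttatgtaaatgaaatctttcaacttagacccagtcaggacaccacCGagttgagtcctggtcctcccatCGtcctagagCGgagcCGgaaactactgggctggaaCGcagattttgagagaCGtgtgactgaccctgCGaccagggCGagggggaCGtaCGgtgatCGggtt
Zkscan8 (chr13:21531065-21531364, minus strand): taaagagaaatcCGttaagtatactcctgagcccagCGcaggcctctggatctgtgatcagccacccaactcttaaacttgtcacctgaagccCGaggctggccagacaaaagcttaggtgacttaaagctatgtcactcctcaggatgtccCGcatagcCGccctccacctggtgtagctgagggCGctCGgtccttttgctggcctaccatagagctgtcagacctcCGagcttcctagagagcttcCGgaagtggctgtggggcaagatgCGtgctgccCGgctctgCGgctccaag

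Of the neighbours, the promoter of Zfp768 held 35 CpG and that of Zfp764 held 6, while those of Zscan26 and Zkscan8 held 13 and 12. The promoter of Zfp618 held 59 CpG at 88.0% G and C, and that of Zfp809 held 11 at 49.3%. A promoter was matched by symbol for 44 of the 61 genes. In 28 of them (63.6%) the observed number of CpG over the number expected from base composition was above 0.6, against 54.5% of 3703 promoters of listed genes and 36.4% of all 27025 in the table. Genes with such promoters and the other 16 both had negative median changes in colitis, which lay closer together in KO than in WT. The 28 had a median WT change of -0.42 and a median KO change of -0.47, where the 16 had -0.55 and -0.52. Of the 28 genes 26 were lower in colitis by the mean over both genotypes, and of the 16 genes 15. The GC box GGGCGG, searched on both strands, stood in 26 promoters (59.1%; 55.1% of listed, 35.9% of all). The ETS motif ACTTCCGG, also on both strands, stood in 5 (11.4%; 4.78% of listed, 4.00% of all), namely those of Zfp142, Zfp316, Zfp974, Zkscan8 and Zfp759. These matches are a description of the letters in the window.

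Colitis went with lower levels of most zinc finger genes in both genotypes. In WT mice 54 of 61 had a lower mean in colitis than in control (88.5%), against 46.0% of all listed genes, and in KO mice the same 54 were lower, against 45.7%. The median change of the 61 was -0.46 in WT and -0.48 in KO, where all listed genes had medians of 0.13 and 0.19. The changes were moderate, with WT quartiles of -0.67 and -0.36 and KO quartiles of -0.60 and -0.38. The 7 genes with higher means in both genotypes were Zfp366, Zfp511, Zbtb8os, Zfp385b, Zfp831, Zfp991 and Zfp703. None of the 61 genes had changes of opposite sign in WT and KO. The signs also agreed for 5042 of all 5171 listed genes, so this is not particular to zinc finger genes.

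**Figure D1:**
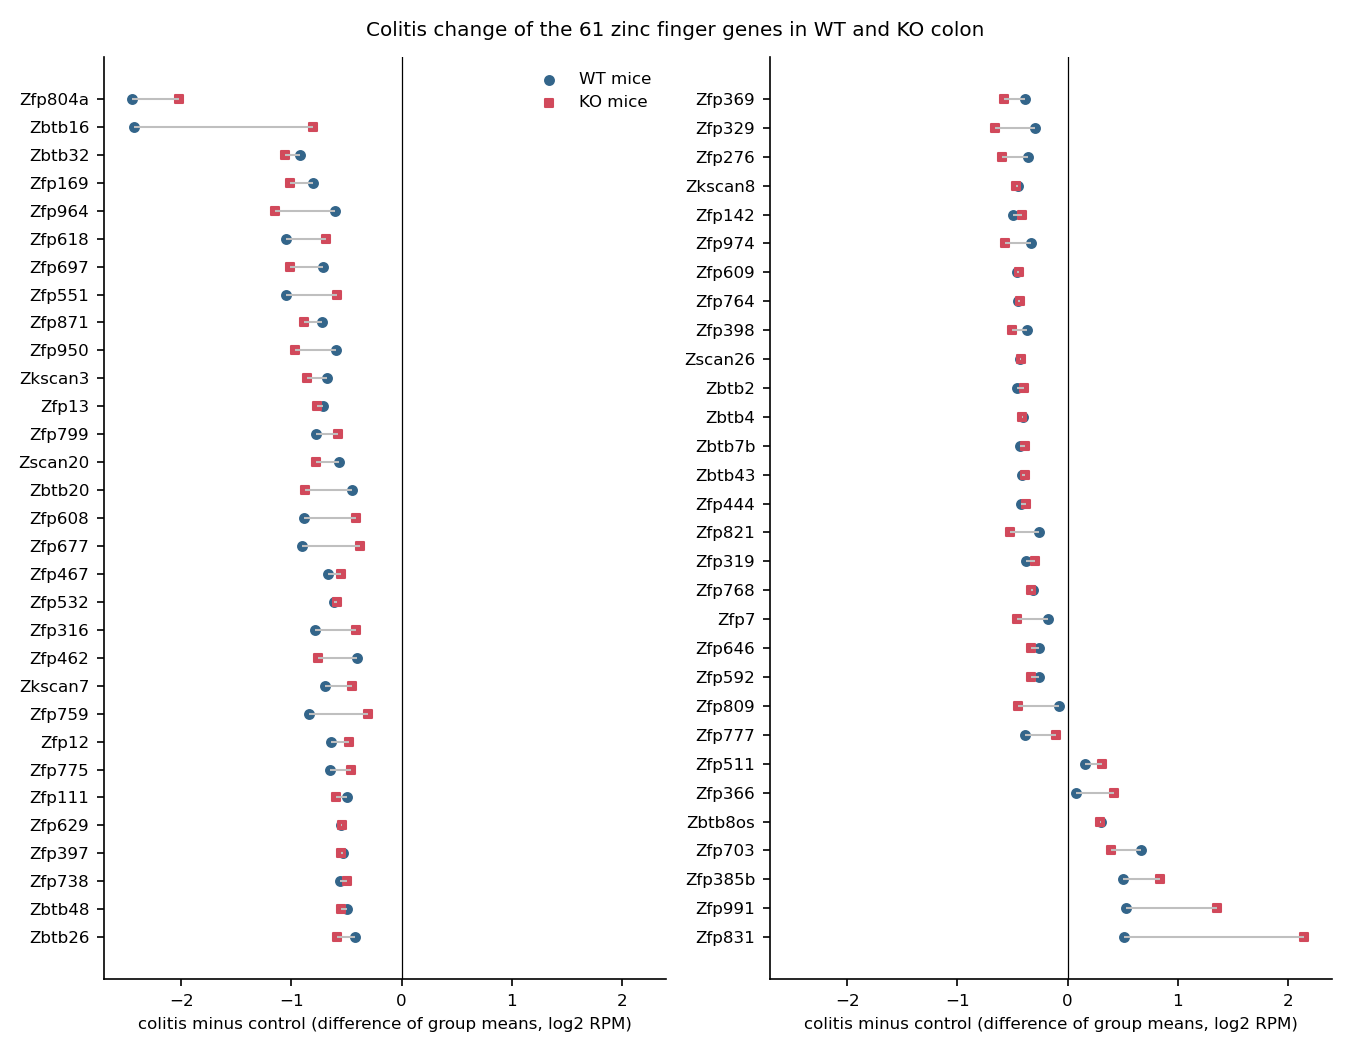
Difference of the group means between colitis and control (log2 RPM) for each of the 61 genes in WT mice (blue circles) and KO mice (red squares), sorted by the mean of both and split over 2 panels. Both symbols of a gene lie on the same side of 0 in all 61 (and in 5042 of all 5171 listed genes), left of it for 54 of the 61.

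By the authors' test, 31 of the 61 genes fell in WT colitis (50.8%) and 3 rose (4.92%), whereas 26.4% of all listed genes fell and 36.6% rose in that comparison. In KO colitis 41 fell (67.2%) and 7 rose (11.5%), beside 33.6% and 44.8% of all listed genes. Regardless of listing, the mean was lower by at least 0.5 on the log2 scale for 26 genes in WT (29.9% of all listed) and 28 in KO (30.6%), which is 42.6% and 45.9% of the 61. It was higher by that much for 4 genes in WT (30.6% of all listed) and 3 in KO (27.9%). A change of at least 1 in either direction was seen for 4 genes in WT (6.56%; 31.4% of all listed) and for 7 genes in KO (11.5%; 28.5% of all listed). In this bulk tissue, fewer cells that express a gene and less RNA per cell cannot be told apart.

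Of the 61 genes, 21 were listed in both genotypes (34.4%; 42.2% of all listed), 18 falling and 3 rising. A further 13 were listed in WT alone (21.3%; 20.9% of all listed) and 27 in KO alone (44.3%; 36.2%). All 13 had lower means in KO as well (56.3% of all genes listed in WT alone), with a median of -0.79 in WT and -0.41 in KO. Of the 27 listed in KO alone, 23 were lower in both, and the medians were -0.37 (WT) and -0.50 (KO). Of all genes listed in KO alone, 52.8% were lower in WT and 50.7% in KO. As 88.5% of the 61 were lower in both, these counts are little beyond the share of the 61. A gene listed in 1 genotype was selected for a large change there, so the larger median on that side follows from how the tables were made. Across the 61 genes the WT and KO changes, which share no library, had Pearson's r = 0.74 and Spearman's rho = 0.59, beside 0.91 and 0.93 across all 5171 listed genes, whose changes spanned a much wider range. Genes are not independent replicates, and these coefficients are descriptions.

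**Figure D2:**
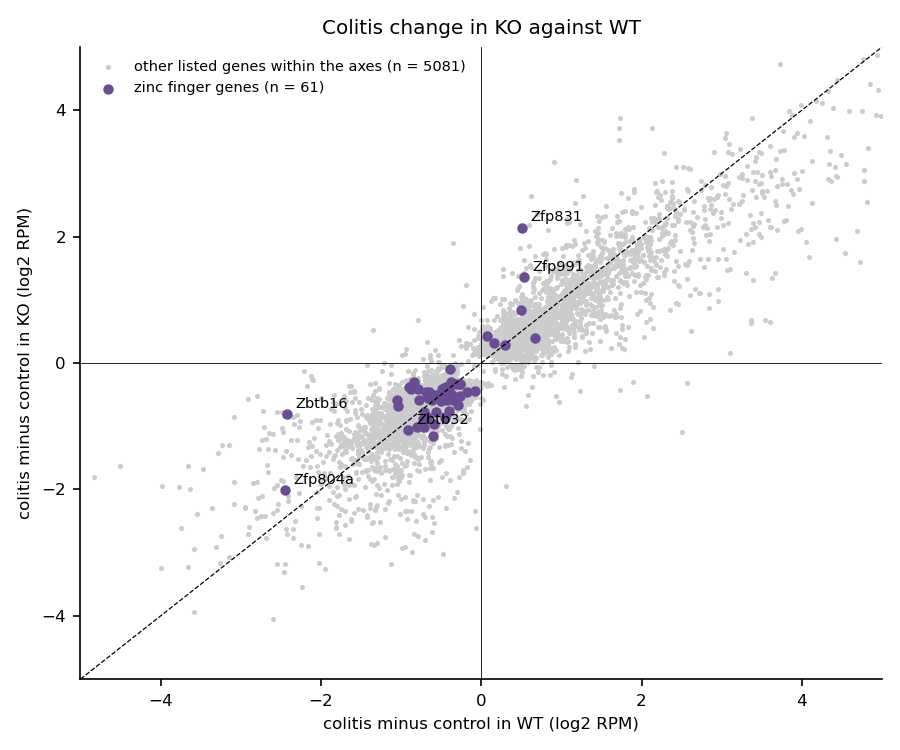
Colitis change in KO mice (vertical) against that in WT mice (horizontal), both as differences of group means in log2 RPM, for the 61 zinc finger genes (purple) and 5081 other listed genes (grey); 29 others lie outside the axes and the dashed line marks equal change. Most purple points sit close together to the lower left, near medians of -0.46 and -0.48, with Zfp804a, Zbtb16 and Zfp831 apart from the rest.

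Markers of other cells moved at the same time. Of the immune marker lists, 7 of 7 T cell genes were listed, with median rises of 2.31 (WT) and 2.49 (KO), as were 8 of 9 macrophage genes, with 1.25 and 1.04. The listed macrophage markers summed to 9.75 and 9.83 log2 RPM in WT and KO control and to 11.003 and 10.97 in WT and KO colitis. For neutrophils 8 of 10 were listed, and S100a8, Cxcr2 and Mmp8 were below 3 reads per library in both control groups. With means below 3 reads raised to 3 reads, the median neutrophil rise was at least 3.94 in WT and at least 2.11 in KO. The listed neutrophil markers summed to 6.91 and 7.03 in WT and KO control and 8.84 and 8.36 in colitis. Ly6g alone stood at 6.52 and 6.62 in WT and KO control, so the control sums rest mainly on this gene. In colitis 7 of the 8 markers were lower in KO than in WT, such as S100a8 (5.54 in WT, 2.88 in KO) and S100a9 (6.36 and 3.60). Only Ly6g was higher in KO colitis, at 7.88 against 7.70 in WT colitis. The listed T cell markers summed to 4.70 and 4.73 in WT and KO control against 6.25 and 6.37 in colitis. Fibroblast markers (5 of 6) had medians of 1.01 and 0.56. Only 2 of 12 epithelial markers were listed, Slc26a3 and Car1 of the absorptive cells of the colon surface, with medians of -1.07 and -1.06, and their summed level went from 12.4 to 11.4 in WT and from 12.3 to 11.2 in KO. Enteric neuron and glia markers (4 of 7) had medians of -0.90 and -0.99, smooth muscle markers (2 of 6) -0.62 and -0.53, and B or plasma cell markers (2 of 6) 0.19 and 0.61. None of 4 endothelial or 6 cell division markers was listed. The part of these shifts in the lower levels of the zinc finger genes was not tested.

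Among the genes listed in both genotypes with every mean above 3 reads, Zbtb32, a BTB repressor of lymphocytes, fell the most. Its means were 3.22 in WT control, 3.05 in KO control, 2.30 in WT colitis and 1.99 in KO colitis. Both colitis means lay below both control means, by 0.92 in WT and 1.06 in KO. Zfp697 stood at 5.22 and 5.40 in WT and KO control and at 4.51 and 4.39 in colitis, falls of 0.71 and 1.01. The Zfp697 gene model overlaps 6 other protein-coding genes, among them Hsd3b2 and Hsd3b3, and reads of such overlaps cannot be assigned with certainty. Zfp950 fell from 5.85 to 5.26 in WT and from 5.86 to 4.90 in KO, and its gene overlaps Grk5.

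Zkscan3, known as a repressor of autophagy genes, had the same level in both control groups, 6.80, and fell to 6.13 in WT colitis and 5.94 in KO colitis. Zfp13 had means of 3.10 in WT control, 3.46 in KO control, 2.38 in WT colitis and 2.69 in KO colitis, so that it fell by 0.72 and 0.77 while KO stood above WT in both conditions. Zfp799 fell from 4.74 to 3.97 in WT and from 4.69 to 4.11 in KO. Zfp13 and Zfp799 thus fell in both genotypes, which follows from their choice among the largest falls listed in both.

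Zscan20 fell from 3.80 to 3.23 in WT and from 4.05 to 3.27 in KO. Zfp467, which favours the fat cell over the bone cell fate in marrow stroma, fell from 6.57 to 5.91 in WT and from 6.50 to 5.95 in KO. Zfp532, whose protein works with the chromatin reader ZMYND8, fell from 4.57 to 3.96 and from 4.47 to 3.88. Zkscan7 fell from 4.75 to 4.06 in WT and from 4.79 to 4.34 in KO. In each of these 10 genes both control means were above both colitis means. They were picked as the largest falls among genes listed in both genotypes, so this follows largely from that choice.

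A large fall was also seen in Zfp804a, the mouse form of a gene studied for its link to psychiatric illness, at the lower end of detection. Its means were 0.68 in WT control and 0.64 in KO control, which correspond to 16.2 and 15.2 reads per library, and -1.76 in WT colitis and -1.37 in KO colitis, or 2.36 and 3.81 reads. The WT colitis mean is below 3 reads, and against 3 reads the WT fall was at least 4.28-fold. The KO fall was 2.02 on the log2 scale. Zfp804a was listed in both colitis tables.

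The genes listed as higher in colitis in both genotypes were Zfp385b, Zfp703 and Zbtb8os. Zfp385b had means of 3.09 in WT control, 3.04 in KO control, 3.59 in WT colitis and 3.88 in KO colitis, rises of 0.50 and 0.84. Zfp703, a transcriptional corepressor of development, rose from 6.38 to 7.05 in WT and from 6.48 to 6.88 in KO. Zbtb8os encodes archease, a cofactor of the tRNA ligase and no zinc finger protein, and its gene overlaps Zbtb8a. Zbtb8os rose from 5.83 to 6.13 in WT and from 5.87 to 6.16 in KO. Zfp703 and Zbtb8os were the only 2 of the 61 in whose protein no classical C2H2 finger was found, and both rose.

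Of the 4 others with higher means, each was listed in KO colitis alone. Zfp366, a gene of dendritic cells (DC-SCRIPT), stood at 3.20 in WT control and 3.28 in WT colitis, and rose from 3.03 to 3.46 in KO. Zfp511 stood at 4.21 and 4.38 in WT and rose from 4.09 to 4.40 in KO, and its gene overlaps Tubgcp2. Zfp831 and Zfp991 are described with the genotype differences.

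The BTB genes of blood cells were in part among the listed: 4 of 9 symbols checked (Zbtb16, Zbtb7b, Zbtb32 and Zbtb20). Zbtb16 encodes PLZF, which marks innate-like lymphocytes. It had a mean of 4.72 in WT control, 3.16 in KO control, 2.29 in WT colitis and 2.36 in KO colitis. WT control alone stood high, and Zbtb16 fell by 2.43 in WT (5.38-fold, listed), against a difference of -0.80 in KO, which was not listed. With 266 reads per library in WT control and 87.5 in KO control, counting error is small beside that gap, but the mean of 3 libraries can rest on 1 of them, and this could not be checked.

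Zbtb7b encodes ThPOK, which fixes the CD4 fate of T cells. It had the highest level per kilobase of exon of the 61, at 6.59 log2 RPM per kilobase in WT control, ahead of Zfp703 at 4.62. Its means in log2 RPM were 9.07 and 9.06 in WT and KO control and 8.63 and 8.68 in colitis, so it fell in both. The T cell markers, among them Cd4 at 3.69 in both control groups, rose in colitis. Levels of different genes do not show which cells hold the RNA. Which cells of the colon hold the RNA of Zbtb7b or Zbtb16 was not tested. Zbtb20, a repressor of fetal liver genes that also acts in B cells, stood at 6.18 and 6.13 in control and 5.72 and 5.26 in WT and KO colitis, and its fall was listed in KO only. Zbtb4, a reader of methylated DNA and 1 of 3 such genes checked, fell from 6.85 in both genotypes to 6.44 in WT and 6.43 in KO.

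Among the other Zbtb genes, Zbtb48 (TZAP, a telomere-binding protein) stood at 4.06 and 4.15 in control and 3.56 and 3.60 in colitis, listed in KO. Zbtb2 had 5.09 and 5.00 in control and 4.63 and 4.60 in colitis, and Zbtb43 had 6.40 and 6.34 against 5.98 and 5.95, both listed in WT. Zbtb26 had 4.35 and 4.23 in control and 3.93 and 3.65 in colitis, listed in KO, and its gene overlaps Zbtb6. Of the 10 Zbtb genes, 9 were lower in both genotypes (90%), which is near the 88.5% of all 61 genes.

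Developmental zinc finger genes were represented by Zfp703 and Zfp462 (2 of 6 symbols). Zfp462 stood at 5.05 in WT control, 5.18 in KO control, 4.65 in WT colitis and 4.42 in KO colitis and was listed in KO. None of the 3 CCCH genes checked (Zfp36, Zfp36l1 and Zfp36l2), which destabilise cytokine mRNA, of the 2 genes of imprint control (Zfp57 and Zfp445) or of 5 genes linked to heterochromatin was listed. Partners of TRIM28 among the listed genes included Chd3 and Morc3. Chd3, the NuRD helicase to which TRIM28 binds, stood at 7.76 in WT control, 7.95 in KO control, 7.64 in WT colitis and 7.50 in KO colitis. Morc3 was higher in colitis by 0.37 in both genotypes.

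A stretch like the KRAB A box was sought in the translated protein of each gene with a fixed pattern of amino acids. It was found in 12 of the 61 (Zfp7, Zfp169, Zfp316, Zfp551, Zfp677, Zfp738, Zfp764, Zfp809, Zfp871, Zfp950, Zfp964 and Zfp991). The pattern undercounts, since it found none in 11 Zkscan proteins, whose name refers to a KRAB box. Of the 179 annotated genes with the stretch 12 were listed (6.70%), while 49 of the 288 without it were. In colitis 11 of the 12 were lower in both genotypes, with WT and KO medians of -0.60 and -0.48. Of the 49 without the stretch 43 were lower, with medians of -0.45 and -0.48. Both counts are near the share of all 61 genes (88.5%; 46.0% of all listed in WT and 45.7% in KO). The KRAB-like proteins held a median of 14.5 C2H2 fingers and the others 8.

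The KRAB-like genes that were lowest in colitis relative to control were Zfp169, Zfp964 and Zfp551, and Zfp991 was the only 1 of the 12 with higher means. Zfp551 stood at 1.93 and 1.85 in control and 0.89 and 1.27 in WT and KO colitis, listed in WT. Zfp169 stood at 3.95 and 4.04 in control and at 3.14 and 3.03 in colitis, and Zfp964 at 1.99 and 2.27 against 1.38 and 1.12, both listed in KO. In each of these 3 lower genes, both colitis means were below both control means, which follows largely from picking the lowest. By genotype the 12 had medians of -0.0043 in control and -0.08 in colitis, and the 49 had -0.01 and -0.01.

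Zinc finger genes often lie in clusters, and 17 of the 61 lay within 500 kb of another of them, in 6 runs. All 17 had lower means in colitis in both genotypes, as had 54 of all 61 (88.5%), so this is little beyond the share of the 61. On chromosome 13, Zkscan3, Zscan26 and Zkscan8 lay within 144117 bases (GRCm38). Zscan26 fell from 6.39 to 5.95 in WT and from 6.31 to 5.89 in KO, and Zkscan8 stood at 5.31 and 5.32 in WT and KO control and 4.85 in both colitis groups. Their changes of -0.43 and -0.45 in WT and -0.43 and -0.47 in KO were alike, and that of Zkscan3 was larger.

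On chromosome 7, Zfp768, Zfp764, Zfp629 and Zfp646 spanned 543201 bases, and all 4 were listed in KO alone. Zfp764 with its CpG-poor promoter changed by -0.45 in WT and -0.43 in KO, and Zfp768 with its CpG-rich one by -0.32 and -0.33. On chromosome 17, Zfp871 stood at 5.69 and 5.79 in control and 4.97 and 4.91 in colitis, beside Zfp799. On chromosome 5, Zfp12 and Zfp316 lay tail to tail on opposite strands, with changes of -0.64 and -0.79 in WT and -0.48 and -0.41 in KO. The fourth run, on chromosome 6, held the smallest KO change of the 17, -0.10 for Zfp777.

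**Figure D3:**
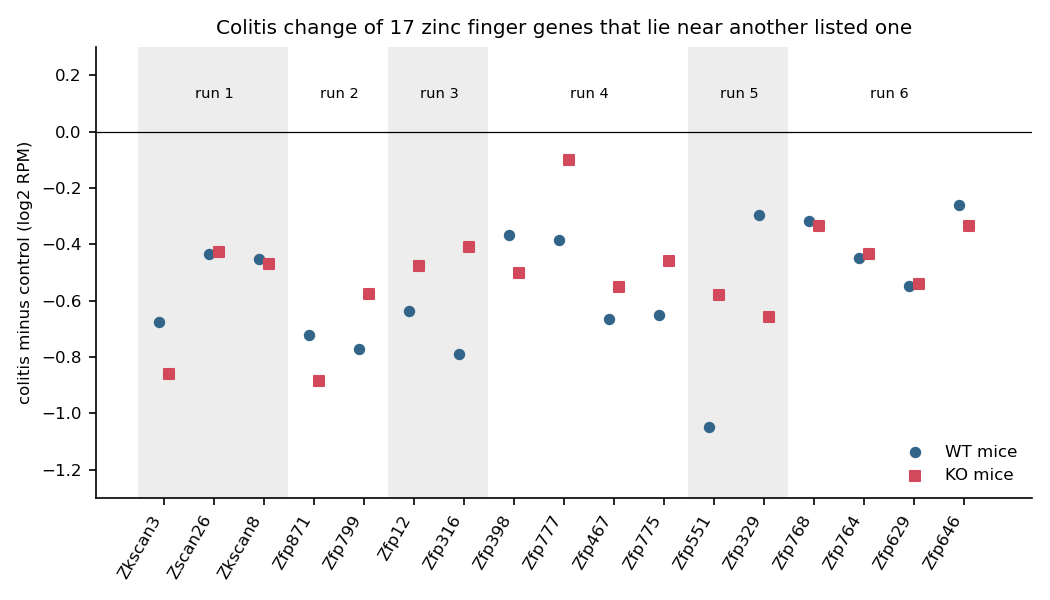
Colitis minus control (difference of group means, log2 RPM) in WT (blue circles) and KO (red squares) for the 17 genes that lie within 500 kb of another of the 61, in genome order within 6 runs (shading). All points lie below 0, from -0.10 for Zfp777 in KO to -1.05 for Zfp551 in WT.

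Between genotypes the 61 genes differed little. None was listed in either comparison of KO with WT, in which 0.89% of all listed genes passed in control and 1.08% in colitis. Having none among 61 is close to these shares and says nothing particular to zinc finger genes. The median of KO minus WT was -0.01 in control and -0.01 in colitis, and all listed genes had medians of 0.00 and -0.01. The difference was under 0.2 in absolute value for 50 genes in control (82.0%; 69.2% of all listed) and for 39 in colitis (63.9%; 57.3% of all listed). A difference of at least 0.5 was found in control for 4 genes lower in KO (3.46% of all listed) and 1 higher (4.04%). In colitis there was none lower in KO (10.3% of all listed) and 1 higher (5.43%). The sign of KO minus WT was the same in control and colitis for 30 of the 61 genes (49.2%; 53.5% of all listed).

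The genotype difference was smaller than the colitis change in 60 of 61 genes (98.4%), when each was averaged over the other factor, beside 97.6% of all listed genes. When KO minus WT in control was set against the WT colitis change alone, it was the smaller in 56 of 61 (91.8%; 92.7% of all listed), with Zfp366, Zfp7, Zfp809, Zfp831 and Zfp991 as the exceptions. The median absolute genotype difference was 0.08 and the median absolute colitis change 0.54, a ratio of 6.58, beside 5.51 over all listed genes. Both figures rest on genes that were listed for colitis, so the ratio reflects that choice in part, and a share near that of all listed genes says nothing particular to zinc finger genes.

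**Figure D4:**
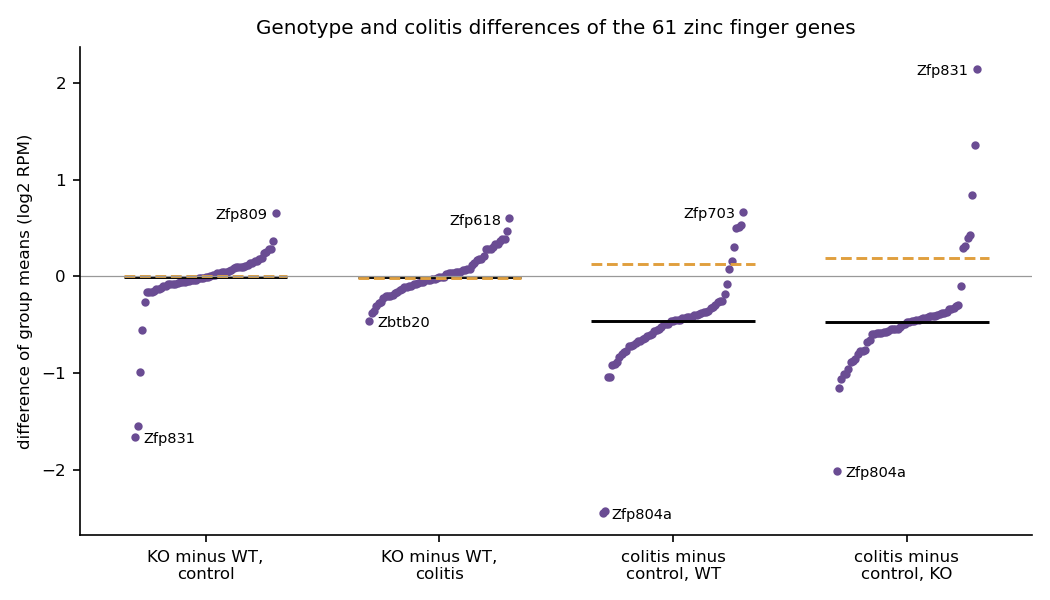
Differences of group means (log2 RPM) of the 61 genes in 4 comparisons, each sorted from lowest to highest, with the median of the 61 (solid line) and of all 5171 listed genes (dashed line). The genotype medians are both -0.01 and the colitis medians -0.46 and -0.48.

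Zfp809, a KRAB zinc finger protein that directs TRIM28 to the primer binding site of murine retroviruses, was the exception by the averaged values. Its means were 4.94 in WT control, 5.60 in KO control, 4.86 in WT colitis and 5.15 in KO colitis. KO stood above WT by 0.65 in control (1.57-fold) and 0.29 in colitis (1.22-fold), and colitis lay below control by 0.08 in WT and 0.45 in KO. Only the change in KO colitis was listed. The estimated reads per library were 311, 472, 233 and 350, so the level was well above the floor, but no spread between mice stands beside the difference.

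KO stood above WT in both conditions for 13 of the 61 genes (21.3%; 25.9% of all listed), and the largest mean differences after that of Zfp809 were those of Zfp618, Zfp775, Zfp13 and Zfp609. Zfp618 stood at 5.72 in WT control, 5.96 in KO control, 4.68 in WT colitis and 5.28 in KO colitis. It fell in WT, and KO exceeded WT by 0.24 in control and 0.60 in colitis. Zfp775 stood at 4.40, 4.68, 3.75 and 4.22 in the same order, with KO above WT by 0.28 and 0.47. For Zfp609, whose protein is a partner of the cohesin loader NIPBL, the means were 6.39, 6.55, 5.93 and 6.12, and KO exceeded WT by 0.16 and 0.18.

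The largest differences in the other direction were in control mice. Zfp831 stood at 0.80 in WT control and -0.86 in KO control, then at 1.31 in WT colitis and 1.28 in KO colitis. KO control alone was low, by 1.66, at 5.38 reads per library against 17.6 in WT control. The change in colitis was 0.51 in WT and a listed rise of 2.14 in KO, and the KO control libraries are part of both that rise and the genotype difference. Zfp991 behaved in the same order, with 1.45 in WT control, 0.46 in KO control, 1.98 in WT colitis and 1.82 in KO colitis. It was 0.99 lower in KO control, at 13.4 reads per library against 27.6, and 0.16 lower in KO colitis.

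Zbtb16, described above, was 1.55 lower in KO control and 0.07 higher in KO colitis. Zfp759 stood at 3.73 in WT control, 3.18 in KO control, 2.89 in WT colitis and 2.87 in KO colitis, 0.55 lower in KO control and 0.02 lower in KO colitis. For all 4 genes that were lower in KO control by at least 0.5, the genotypes were within 0.16 of each other in colitis. These 4 were picked for a large difference in control, so a smaller one in colitis follows in part from that choice. Of all 61 genes, 63.9% differed by under 0.2 in colitis. Zbtb20 was 0.04 lower in KO control and 0.46 lower in KO colitis, the largest negative difference in colitis, and Zbtb32 was 0.16 and 0.31 lower.

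**Figure D5:**
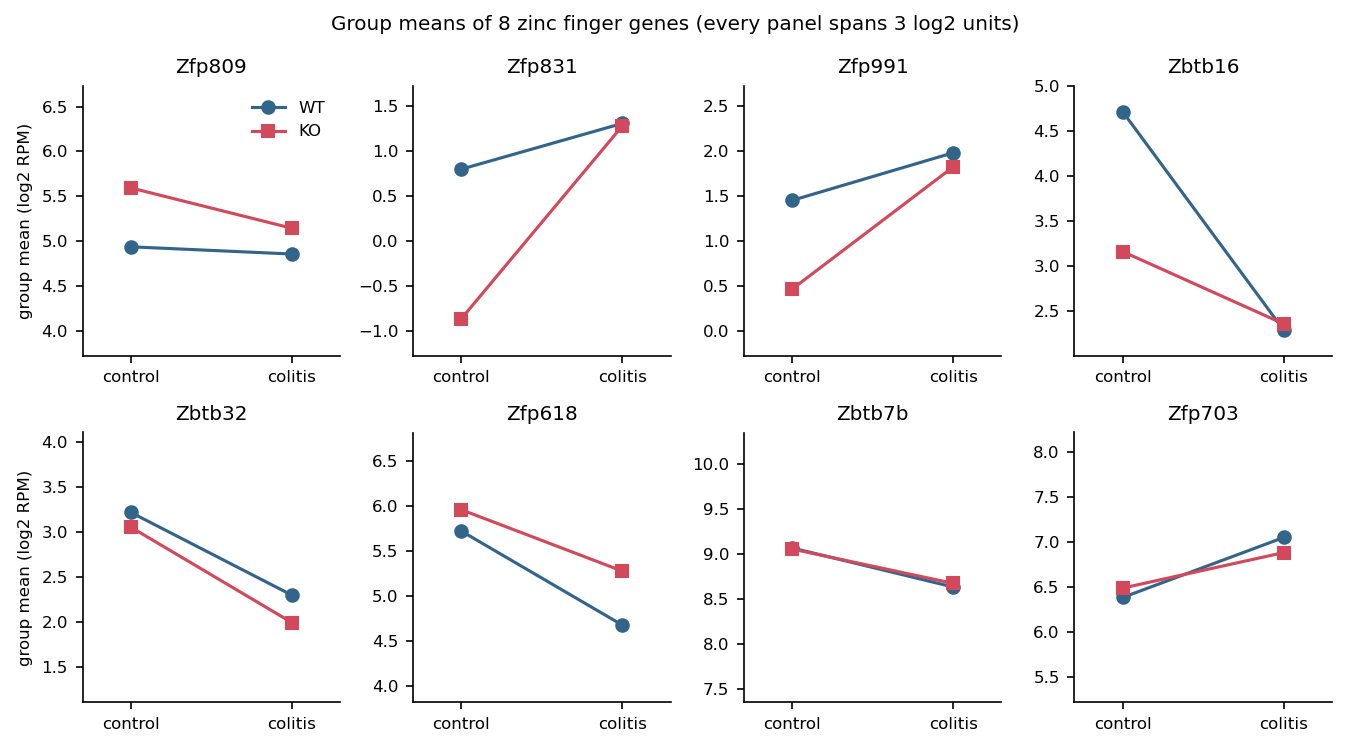
Group means (log2 RPM) of 8 zinc finger genes in control and colitis, WT in blue circles and KO in red squares, with 3 control and 5 colitis libraries per genotype, no error bars because the tables hold means only, and a span of 3 log2 units in each panel. KO lies above WT in both conditions for Zfp809 and Zfp618, and for Zfp831, Zfp991 and Zbtb16 the genotypes are apart in control and close in colitis.

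How far the colitis change differed between genotypes was largest for Zfp831 and Zbtb16, where the KO change exceeded the WT change by 1.63 and 1.62, and next for Zfp991, by 0.83. In the other direction Zfp964 changed more in KO than in WT, by -0.54. The median of this difference over the 61 genes was 0.01 and it was under 0.2 in absolute value for 33 of them (54.1%; 50.6% of all listed). No test of this difference was run, for want of values of single mice.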

How the data were processed

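RNA was measured in 16 libraries of mouse colon in 4 groups, assigned by sample title. The submitters' processing notes name HISAT2 2.1.0, the build GRCm38 and DESeq2, and the methods describe counting of reads over exons in SeqMonk after removal of reads on ribosomal RNA, which had contaminated some samples. The deposited log2 values are the authors' group means of log2 RPM, with a count of 0 taken as 0.9 read before the logarithm. The deposited p-value column holds the authors' adjusted p from DESeq2, each table lists genes below 0.05, and that column was not used beyond the listing itself.

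Genes were matched by symbol, and group means were subtracted with pandas 2.3.3. Rows of a gene held the same means in every table. Library sizes came from the steps of whole reads in low means, and a mean up to 3 reads was treated as a floor. Counting error falls with depth, and the spread between mice is unknown. Scripts were tested on simulated data. The design had named RefSeq proteins for the KRAB search; proteins translated from GENCODE M21 were used instead.

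The genes and lists were chosen with earlier results of these data known. Genes were named when they belonged to the functional lists, were among the 10 largest falls or rises in both colitis tables with all means above 3 reads, or were among the 5 highest and 5 lowest genotype differences of 1 sign. All others named, such as Zfp804a, Zfp366 and the neighbours, were chosen after their values were seen. No p was computed. Alternatives covered the floor, a level minimum, centring, table membership, gene overlap, the size of a change and the KRAB pattern. The count over the list of Trim28 partners is not reported here. Raising low means of the cell markers to 3 reads was an alternative chosen after seeing the data.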

Additional observations from a re-analysis of the deposited data

How the results depend on the processing

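Of 34 alternative values for 10 results, 27 stayed within 0.1 of a median or within 1.5 times of a count, and none reversed. The median WT colitis change of -0.46 became -0.57 when each group was centred on the median of all listed genes, which itself moved up with colitis by 0.12 (WT) and 0.07 (KO), and became -0.60 over the 21 genes listed in both genotypes. After centring, 55 genes were lower in WT and 54 in KO. Among those 21 genes the genotype difference was the smaller in all 21, because fewer genes entered. With a change of at least 1 in place of 0.5, the 30 genes past the limit in WT colitis became 4, the 31 in KO colitis became 7, the 5 in KO against WT in control became 2 (Zfp831 and Zbtb16), and the 1 in colitis became 0. The alternatives for Trim28 were not run, since it is in none of the tables. No paired analysis was possible because the tables hold group means, and for the same reason no library could be left out. The spread between mice limits every difference, and depth limits Zfp804a and Zfp831 most.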
